A study of Mus musculus with 6 samples.

Results

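Interferon response genes are transcripts that cells make after an interferon or a viral nucleic acid has been sensed. A set of 33 of them, chosen by symbol, was read from a count table of 41388 genes in cultured fibro-adipogenic progenitors of mouse muscle, and all 33 were found. These mesenchymal cells came from wild-type male mice and were grown as primary cells with 10% serum and human fibroblast growth factor, which both groups share. The vehicle group of 3 libraries received carrier alone and the PGE2 group of 3 libraries received 500 nM prostaglandin E2, a lipid mediator, in each case once per day for 2 days. Nothing in the labels ties a library to a mouse or a dish, and p-values therefore describe the spread among these 6 libraries, which may be technical. Totals ran from 21006044 counts in vehicle library 2 to 52730962 in PGE2 library 2, so that 3 counts were worth between 0.0582 and 0.142 CPM, the count scaled by library size. Of the 33 genes 32 passed a filter on low counts and were tested, and Oas3 did not. All 10 markers of the progenitors passed the filter, with a summed level of 8007 to 20131 CPM and the receptor gene Pdgfra between 1122 and 1455 CPM. The 8 macrophage and leukocyte markers summed to 9.89 to 13.3 CPM, with 2 of them, Ptprc and Cd3e, at 0 in every library. Myogenic markers summed to 23.1 to 225.8 CPM.

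Type I interferons bind the receptor pair Ifnar1 and Ifnar2, whose kinases Jak1 and Tyk2 phosphorylate Stat2. With Irf9 it forms part of a complex that binds the interferon-stimulated response element in target promoters, whereas interferon gamma acts at gamma-activated sites. The products block viral replication at many steps, and fibroblast-like cells keep a low level of the programme running without infection.

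The response element was searched on both strands as GAAA, any 2 bases and GAAA again, or its reverse complement TTTC, any 2 bases and TTTC, in RefSeq promoter windows of 300 bases on GRCm38.p6 (250 before the start and 50 after). Windows were present for 23 of the 33 genes. The element was found in 11 of these 23 genes (47.8%) and in 3.99% of all 27025 genes with a window. The gamma-activated site, searched as TTCNNNGAA, which reads the same on both strands, was found in 5 of the 23 genes (21.7%) and in 9.55% of all. The 10 tested genes with a response element had a median log2 fold change, PGE2 over vehicle, of -0.635, and the 12 without had -0.365; this is a description with no test. The 160 bases before the start are printed for 5 genes that the results below turn on, 5′ to 3′ along the gene, with response elements in capitals. Ifit3, Oas1a and Ifit1 ranged most widely over the 6 libraries among tested genes with an element, and Gbp2 and Ifit2 passed a test described below.
Ifit3, chr19:34583369-34583528, plus strand: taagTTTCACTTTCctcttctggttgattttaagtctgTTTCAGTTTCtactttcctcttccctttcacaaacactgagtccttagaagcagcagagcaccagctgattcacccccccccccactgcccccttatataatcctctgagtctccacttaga
Ifit1, chr19:34640729-34640888, plus strand: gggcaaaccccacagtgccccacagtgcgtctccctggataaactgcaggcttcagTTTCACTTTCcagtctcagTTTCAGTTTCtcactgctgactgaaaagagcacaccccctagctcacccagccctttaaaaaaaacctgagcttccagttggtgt
Oas1a, chr5:120907526-120907685, minus strand: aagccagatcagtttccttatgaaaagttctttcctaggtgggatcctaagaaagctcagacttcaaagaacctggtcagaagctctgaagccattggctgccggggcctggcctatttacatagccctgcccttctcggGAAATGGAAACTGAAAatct
Gbp2, chr3:142620503-142620662, plus strand: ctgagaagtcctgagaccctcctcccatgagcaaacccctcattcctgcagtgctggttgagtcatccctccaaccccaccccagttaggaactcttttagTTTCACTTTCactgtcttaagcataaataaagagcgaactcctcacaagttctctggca
Ifit2, chr19:34550534-34550693, plus strand: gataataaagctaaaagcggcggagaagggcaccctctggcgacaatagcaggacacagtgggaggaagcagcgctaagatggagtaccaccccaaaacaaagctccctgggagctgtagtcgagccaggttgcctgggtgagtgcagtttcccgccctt
In Oas1a the matches overlap and share their middle bases. Ifit2, which lies beside Ifit3 and Ifit1 on chromosome 19, had no response element in the 300-base search. It was 1 of the 5 genes with a gamma-activated site. Ifih1 had its match, GAAACAGAAA, after the start, with its first base at position 33.

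Most interferon response genes had the same order of libraries within each treatment. Among the vehicle libraries the order from high to low was 1, 3, 2 for 26 of the 32 tested genes (81.2%, against 15.7% of all tested genes), and among the PGE2 libraries it was 3, 2, 1 for 25 (78.1%, against 27.3%). Vehicle library 1 was the highest of all 6 libraries for 26 of the 32 tested genes (81.2%, against 22.0% of all tested genes), and vehicle library 2 was the lowest of the vehicle libraries for 31 of them (96.9%, against 28.8%). PGE2 library 1 was the lowest of the PGE2 libraries for 30 (93.8%, against 41.1%). The median over the 32 genes of log2 CPM minus the gene's own mean was 0.68, -0.31 and 0.26 in vehicle libraries 1 to 3 and -0.54, -0.11 and 0.07 in PGE2 libraries 1 to 3, whereas the median of all tested genes stayed between 0 and 0.01. The range over the vehicle libraries had a median of 1.02 on the log2 scale, against 0.31 for all tested genes, and the range over the PGE2 libraries had a median of 0.58, against 0.25. In 26 of the 32 genes (81.2%, against 75.1% of all) the range over the vehicle libraries was larger than the fitted difference between the groups.

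**Figure D1:**
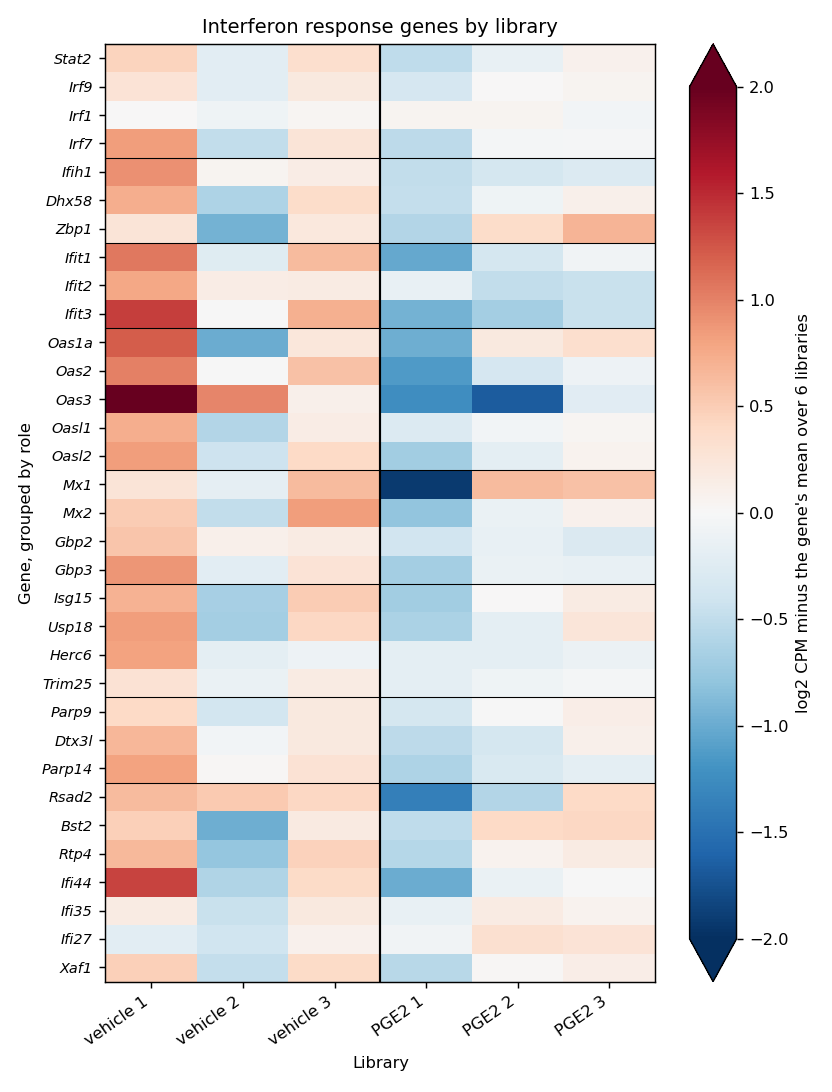
Log2 CPM minus the gene's mean over 6 libraries (colour) for the 33 genes (rows, grouped by role, thin lines between roles) in the 3 vehicle and 3 PGE2 libraries (columns). Vehicle library 1 is the highest for 26 of the 32 tested genes, and PGE2 library 1 is the lowest of all 6 for 19.

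Ifit1, Ifit2 and Ifit3 encode tetratricopeptide proteins that bind foreign RNA or hinder its translation, and all of them were lower in the PGE2 library of every numbered pair. Ifit2 (ENSMUSG00000045932, chromosome 19, 34550694 to 34576419 of mm10) was at 42.2, 27.1 and 27.6 CPM in vehicle libraries 1 to 3 and at 22.1, 17.3 and 17.9 CPM in PGE2 libraries 1 to 3. Ifit3 (ENSMUSG00000074896, 34583531 to 34588731) was at 110.7, 42.0 and 69.4 CPM with vehicle and at 22.1, 26.4 and 30.9 CPM with PGE2. For both genes every PGE2 library lay below every vehicle library. Ifit1 (34640871 to 34650009) was at 81.6, 32.8 and 60.8 CPM with vehicle and at 19.1, 30.6 and 37.2 CPM with PGE2, and its groups overlapped. The log2 fold changes were -0.76 ± 0.193 (SE) for Ifit2, -1.49 ± 0.344 for Ifit3 and -1.02 ± 0.373 for Ifit1. By edgeR's quasi-likelihood test of PGE2 against vehicle, with Benjamini-Hochberg adjustment over all 15186 tested genes, none passed 0.05 (adjusted p = 0.124, 0.119 and 0.208). With the replicate number added as a block, called the paired fit here, Ifit2 fell by 0.74 ± 0.0904 (edgeR adjusted p = 0.000721), and Ifit3 and Ifit1 did not pass (edgeR adjusted p = 0.170 and 0.349). Ifit3 has a near-identical copy, Ifit3b, which was not analysed here, and no source used here tells how reads shared by both were counted, which leaves the level of Ifit3 uncertain.

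**Figure D2:**
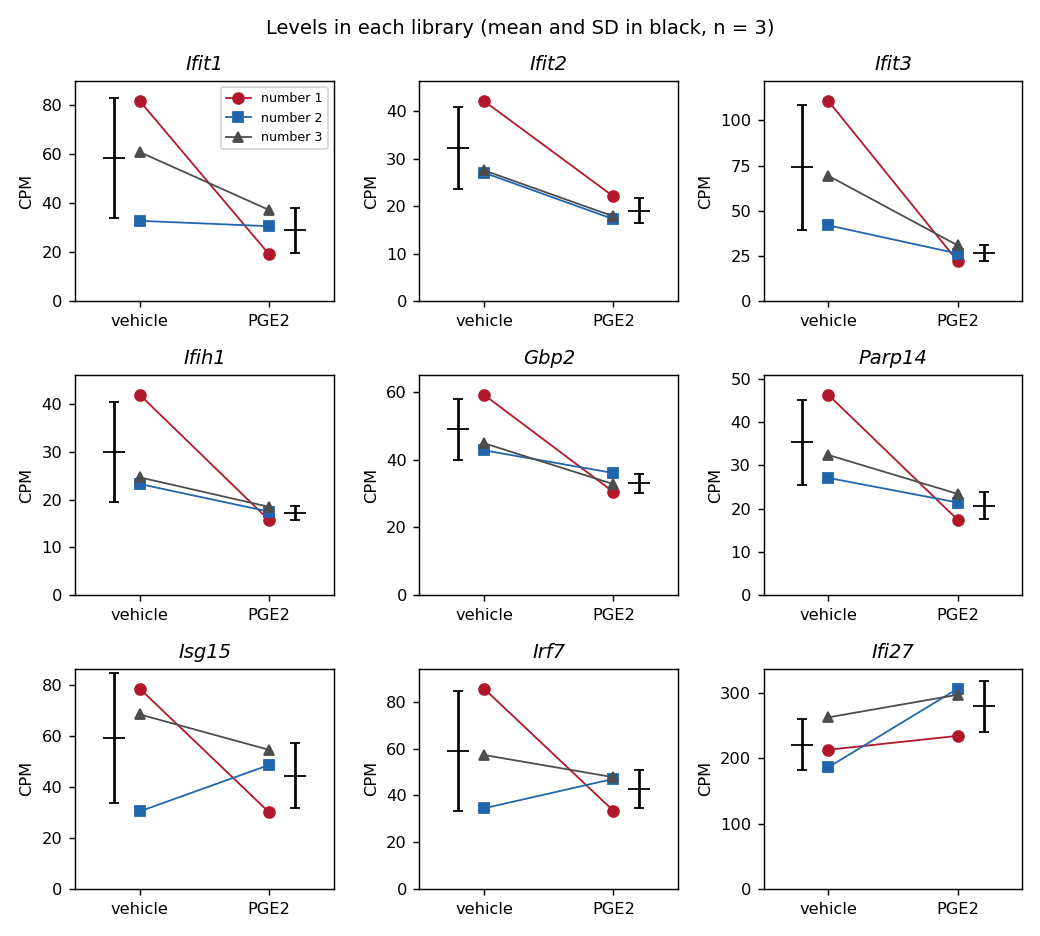
CPM in each library for 9 genes, with lines joining libraries of the same number and the mean ± SD of each group in black (n = 3). Ifit2, Ifit3, Ifih1, Gbp2 and Parp14 have groups that do not overlap, Isg15 and Irf7 are higher with PGE2 in number 2 and lower in numbers 1 and 3, and Ifi27 is higher with PGE2 in all 3 numbers.

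Among the sensors, Ifih1 (MDA5), which detects long double-stranded RNA, had groups that did not overlap. It was at 42.0, 23.3 and 24.7 CPM with vehicle and at 15.7, 17.5 and 18.5 CPM with PGE2, a log2 fold change of -0.80 ± 0.231 that did not pass (edgeR adjusted p = 0.150, paired 0.0825). Dhx58 (LGP2), its regulator, was at 26.1 ± 11.1 (SD, n = 3) and 20.0 ± 3.90 CPM. Zbp1, a sensor of left-handed nucleic acid that can start cell death, went the other way in libraries 2 and 3. It was at 21.3, 9.18 and 20.6 CPM with vehicle and at 11.8, 23 and 28.3 CPM with PGE2, so its groups overlapped (log2 fold change 0.29 ± 0.411).

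The signal transducers overlapped between groups. Stat2 was at 159.4, 100.4 and 146.4 CPM with vehicle and at 81.9, 104.9 and 123.5 CPM with PGE2. Its partner Irf9 was at 70.3, 50.3 and 66.9 and at 46.1, 57.9 and 60.6 CPM. Irf7, the factor that amplifies type I interferon output and is itself induced by it, was at 85.7, 34.5 and 57.3 and at 33.4, 47.1 and 47.8 CPM. These 3 genes were lower with PGE2 in libraries numbered 1 and 3 and higher in number 2. Irf1, a factor that interferon gamma and other cytokines induce, was the most even of the 33, at 43.5 ± 1.94 CPM with vehicle and 44.8 ± 2.12 CPM with PGE2, a log2 fold change of 0.04 ± 0.0709. Irf7 overlaps Phrf1, Irf9 overlaps Rnf31, Rtp4 overlaps Masp1 and Dhx58 overlaps its antisense gene Dhx58os; no source used here gives the strand setting of the counting, so these levels are uncertain.

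The OAS genes encode enzymes or relatives of enzymes that make oligoadenylates once double-stranded RNA switches them on, and so activate RNase L. Oas2 was at 2.93, 1.42 and 2.17 CPM with vehicle and at 0.625, 1.12 and 1.33 CPM with PGE2, with no overlap and a log2 fold change of -1.11 ± 0.360 (edgeR adjusted p = 0.166, paired 0.0536). Oas1a was at 5.42, 1.14 and 2.73 and at 1.16, 2.68 and 2.94 CPM, so the order of the groups turned with the library number. Oasl2 was at 104.3, 43.8 and 76.8 and at 35.9, 50.9 and 61.2 CPM, and Oasl1, which restrains Irf7 translation in mice, was at 8.60 ± 3.77 and 7.02 ± 0.758 CPM. Oas3, not tested, had 37, 8 and 8 counts with vehicle and 2, 1 and 5 counts with PGE2. Its PGE2 levels lay at or near the level of 3 counts.

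Of the GTPases, Gbp2, a guanylate-binding protein that attacks the membranes of intracellular microbes, had the smallest unblocked p of the 33. Gbp2 (ENSMUSG00000028270, chromosome 3, 142620602 to 142638008) was at 59.2, 42.8 and 44.9 CPM with vehicle and at 30.5, 36.1 and 32.8 CPM with PGE2, and the groups did not overlap. Its log2 fold change was -0.57 ± 0.134 (edgeR adjusted p = 0.113), and in the paired fit it fell by 0.56 ± 0.124 (edgeR adjusted p = 0.0202). Gbp3 was at 55.8, 26.0 and 36.6 and at 18.7, 27.1 and 27.1 CPM. Mx2 was at 4.14, 2.03 and 5.22 and at 1.66, 2.62 and 3.07 CPM, while Mx1, a dynamin-like restriction factor of influenza virus, was below 1 CPM in every library and at 0.0646 CPM, or 3 counts, in PGE2 library 1. Gbp3, Mx2 and Mx1 overlapped between groups.

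The ubiquitin-like modifier Isg15 and the enzymes that act with it did not separate the groups. Isg15 was at 78.5, 30.4 and 68.4 CPM with vehicle and at 30.0, 48.6 and 54.5 CPM with PGE2. Trim25, a ligase that activates the sensor RIG-I and can attach Isg15, was at 105.2, 77.9 and 96.6 and at 75.7, 81.0 and 83.7 CPM. Both overlapped between groups, as did Usp18, the protease that removes Isg15 and dampens the receptor (27.5 ± 13.0 and 19.8 ± 5.90 CPM), and Herc6, the main Isg15 ligase of the mouse (13.4 ± 5.62 and 10.1 ± 0.353 CPM). Their log2 fold changes lay between -0.49 and -0.22.

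Parp14, an ADP-ribosyltransferase, was at 46.3, 27.1 and 32.4 CPM with vehicle and at 17.4, 21.4 and 23.4 CPM with PGE2, and these values did not overlap (log2 fold change -0.77 ± 0.210, edgeR adjusted p = 0.138, paired 0.0961). Parp9 and its ligase partner Dtx3l overlap on opposite strands, so their levels are uncertain too. Parp9 was at 63.2, 37.3 and 54.9 and at 37.7, 47.5 and 52.6 CPM, and Dtx3l was at 28.6 ± 7.40 and 19.8 ± 4.63 CPM, lower with PGE2 in every number.

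The remaining effectors went both ways. Rsad2 (viperin), which makes a chain-terminating nucleotide, was at 2.91, 2.70 and 2.52 CPM with vehicle and at 0.689, 1.22 and 2.47 CPM with PGE2; the groups were apart by the small step from 2.47 to 2.52. Bst2 (tetherin), which holds budding virus at the cell surface, was at 96.6, 35.3 and 79.0 and at 48.9, 92.1 and 93.4 CPM, lower with PGE2 in number 1 and higher in numbers 2 and 3. Ifi44 had the widest range among genes above 10 CPM on average, at 29.9, 7.71 and 15.4 and at 5.88, 10.6 and 11.6 CPM. The groups of Bst2 and of Ifi44 overlapped. Rtp4, a receptor chaperone, was at 37.3 ± 16.5 (SD, n = 3) CPM with vehicle and 30.1 ± 7.69 with PGE2. Xaf1, a partner of apoptosis inhibitors, was at 19.7 ± 6.32 and 16.2 ± 3.89 CPM, and Ifi35 was at 39.3 ± 8.96 and 40.2 ± 4.27 CPM; none of these passed. Ifi27, a small membrane protein, was at 212.9, 186.1 and 262.4 CPM with vehicle and at 234.1, 306.3 and 297.0 CPM with PGE2. It was the only tested gene of the 33 higher with PGE2 in all 3 numbers, and it did not pass (log2 fold change 0.34 ± 0.153, edgeR adjusted p = 0.266, paired 0.0653). Per kilobase of its longest transcript Ifi27 also had the highest level, 255.7 CPM per kilobase, followed by Bst2 at 93.7 and Isg15 at 68.4, and Mx1 and Oas3 had the lowest at 0.133 and 0.0573.

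Set against the same number, PGE2 library 1 was far below vehicle library 1, while PGE2 library 2 was above vehicle library 2 for most of the 32 genes. The difference was below 0 for 30 of them in number 1, for 9 in number 2 and for 28 in number 3, and its median was -1.205, 0.283 and -0.242 on the log2 CPM scale. The median of all tested genes was -0.005, 0.011 and -0.001. Lower with PGE2 in all 3 numbers were 9 genes, namely Ifit1, Ifit2, Ifit3, Ifih1, Gbp2, Oas2, Parp14, Dtx3l and Rsad2, which is 28.1% of the 32, close to the 25.5% of all tested genes. Ifit2 was the most even of these, with differences of -0.93, -0.65 and -0.63, whereas Ifit3 had -2.32, -0.67 and -1.16 and Isg15 had -1.39, 0.68 and -0.33.

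**Figure D3:**
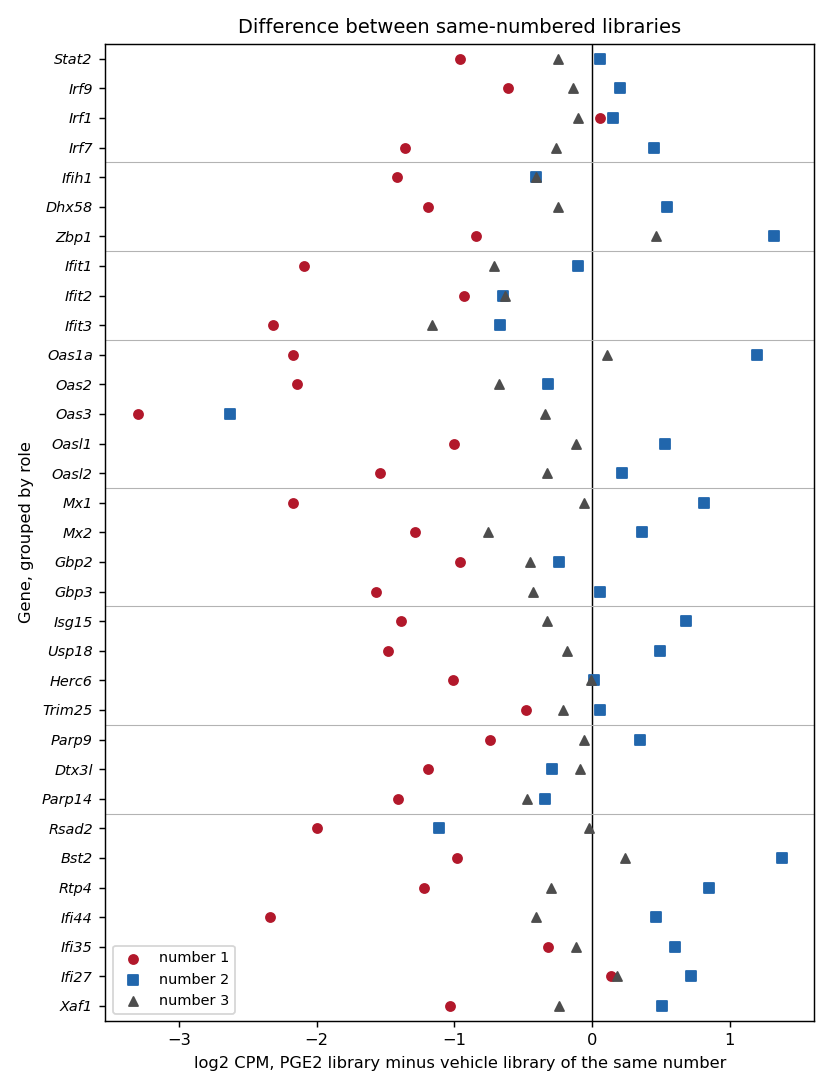
Log2 CPM of the PGE2 library minus that of the vehicle library with the same number (x axis) for each of the 33 genes (rows, grouped by role). Points of number 1 lie below 0 for 30 of the 32 tested genes, and points of number 2 lie below 0 for 9.

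Over the whole set, 27 of 32 genes had a log2 fold change below 0 (84.4%, against 50.2% of all tested genes), with a median of -0.448 against -0.001. None of the 32 passed the unblocked edgeR test, in which 0.342% of all tested genes were called. At an unadjusted edgeR p under 0.05 there were 8 of the 32, all lower, against 10.1% of all tested genes lower. Limma-voom called 0, with 0.0988% of all genes called. DESeq2 called 6 lower, namely Ifit1, Ifit2, Ifit3, Ifih1, Gbp2 and Parp14, where it called 3.27% of all genes lower. The paired fit called Ifit2 and Gbp2 lower, 2 of 32, and 7.51% of all genes lower, so the share of the set was close to the background. On simulated counts both edgeR fits made more false calls than the threshold implies, the paired fit more than the unblocked one. The simulated counts held no effect of the library number, so this ranking of the fits may not carry over to these libraries. Groups did not overlap, with PGE2 lower, for 7 of the 32, against 12.2% of all tested genes. These were Ifit2, Ifit3, Ifih1, Oas2, Gbp2, Parp14 and Rsad2. With PGE2 higher there were 0 of the 32, against 13.7%.

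**Figure D4:**
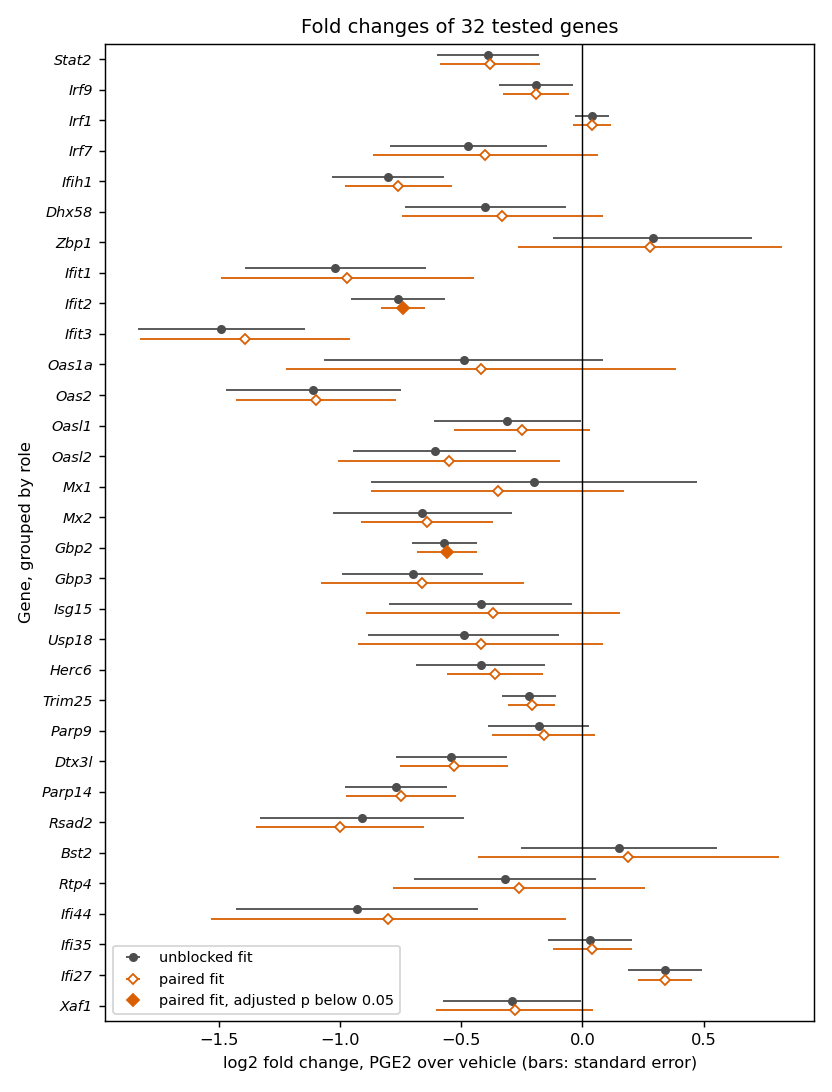
Log2 fold change of PGE2 over vehicle with its standard error (x axis) for the 32 tested genes (rows, grouped by role) in the unblocked edgeR fit (circles) and in the paired fit (diamonds, filled where the adjusted p is below 0.05). Most points lie left of 0, and Ifit2 and Gbp2 carry the 2 filled diamonds.

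Leaving out vehicle library 1 alone moved the set's median to -0.164, and leaving out vehicle library 2 alone moved it to -0.686. Without both libraries numbered 1 the unblocked median was 0.003, and 1 gene, Ifit2 (log2 fold change -0.64, edgeR adjusted p = 0.0125), was called lower beside 1.42% of all genes. The paired fit without them called 5 lower (Ifih1, Ifit1, Ifit2, Ifit3 and Parp14, beside 4.67% of all genes) and 2 higher (Zbp1 at 0.85 and Ifi27 at 0.45, beside 4.44%). Without number 2 the paired fit called 22 lower, with 4.38% of all genes, and without number 3 it called 4 lower (Ifit2, Oas2, Oas3 and Rsad2), with 17.7%. Each of these fits rests on 4 libraries. Oas3, which failed the filter over 6 libraries, passed it without number 3 through its vehicle counts of 37 and 8. Its PGE2 counts there were 2 and 1, so its call is no support for a fall. The paired fit corrected for transcript length called Ifit2 (-0.72, edgeR adjusted p = 2.61e-05) beside 7.97% of all genes lower, while Gbp2 was at -0.62 and did not pass (0.0609). Ifit2 was called lower in every fit listed in this report that called any of the 33. It was not called in the other fits, such as unblocked edgeR (adjusted p = 0.124), limma-voom (0.137) and unblocked edgeR with the length correction (0.171). Nor was it called unblocked without number 2 (edgeR adjusted p = 0.943) or number 3 (0.191), or when any 1 library was left out.

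Upstream of these genes, none of the 6 interferon ligand genes examined had more than 1 count. Ifnb1, Ifna2, Ifna4, Ifnl2 and Ifnl3 had no counts in any library, and Ifng had 1 count in PGE2 library 2. The receptor gene Ifnar1 was at 110.3 ± 5.55 CPM with vehicle and 116.3 ± 12.9 with PGE2 (SD, n = 3). Ifnar2 was at 71.6 ± 11.7 and 82.3 ± 15.6 CPM, higher with PGE2 in all 3 numbers, and did not pass (edgeR adjusted p = 0.550, paired 0.0892). The list of ligands, receptors and transducers had 16 tested genes, a median log2 fold change of 0, and 1 gene that rose in the paired fit, the receptor inhibitor Socs1 (0.38, edgeR adjusted p = 0.036), beside 6.91% of all genes higher.

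Of 16 tested genes of nucleic acid sensing, the adaptor Myd88 (0.40, edgeR adjusted p = 0.0076) and the DNA-sensing adaptor Tmem173, also called STING (0.36, 0.0117), rose in the paired fit and Irf5 fell (-0.40, 0.0289). Of 39 other interferon-stimulated genes, the nuclear-body gene Sp100 (-0.57), the antibody receptor and ligase Trim21 (-0.42) and Tdrd7 (-0.29) fell in the paired fit and the exonuclease Isg20 rose (0.45); the list's unblocked median was -0.299. The 3 that fell of 39 are a share close to the 7.51% of all genes called lower in that fit. Of 26 interferon gamma GTPases and antigen presentation genes, the peptide transporter Tap1, Cxcl9, Gbp9 (-0.65) and the immunoproteasome subunit Psmb9 (-0.55) fell in the paired fit and the class I gene H2-K1 rose (0.40); the median was -0.402. Over the 4 lists the paired fit called 8 of 97 lower and 5 higher, beside 7.51% and 6.91% of all genes. None of the 97 tested genes in the 4 lists passed the unblocked edgeR test (lowest adjusted p 0.0534). At an unadjusted p under 0.05 there were 20 lower and 6 higher, beside 10.1% and 9.99% of all genes. Limma-voom called 0, and DESeq2 called 8 lower and 1 higher, beside 3.27% and 2.86%. Once the paired fit was corrected for length, 4 of the genes were no longer called: Sp100 at -0.55 and Gbp9 at -0.57 were of similar size, and Isg20 at 0.28 and H2-K1 at 0.29 were smaller.

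Cxcl9, a chemokine for T cells that interferon gamma induces, and Tap1 had the smallest p. Cxcl9 was at 2.23, 0.899 and 1.64 CPM with vehicle and at 0.388, 0.465 and 0.517 CPM with PGE2, a log2 fold change of -1.83 ± 0.359 (edgeR adjusted p = 0.0930, paired 0.00566). Tap1 was at 56.7, 47.6 and 50.5 and at 32.2, 36.2 and 34.8 CPM, a log2 fold change of -0.59 ± 0.0885 (edgeR adjusted p = 0.0534, paired 0.00293). Neither gene's groups overlapped. Scaled by library totals alone, edgeR called Tap1 lower, beside 0.224% of all genes, and with no filter on low counts it called Tap1 and Cxcl9, beside 0.611%. In all, 21 of the 97 tested genes in these 4 lists had PGE2 below vehicle with no overlap, against 12.2% of all tested genes. With no overlap and PGE2 above vehicle there were 4, against 13.7%. The other interferon-stimulated genes had the vehicle order 1, 3, 2 in 66.7% of the list, with medians of 0.37 in vehicle library 1 and -0.35 in PGE2 library 1. The gamma list had that order in 69.2%, with medians of 0.45 and -0.24.

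**Figure D5:**
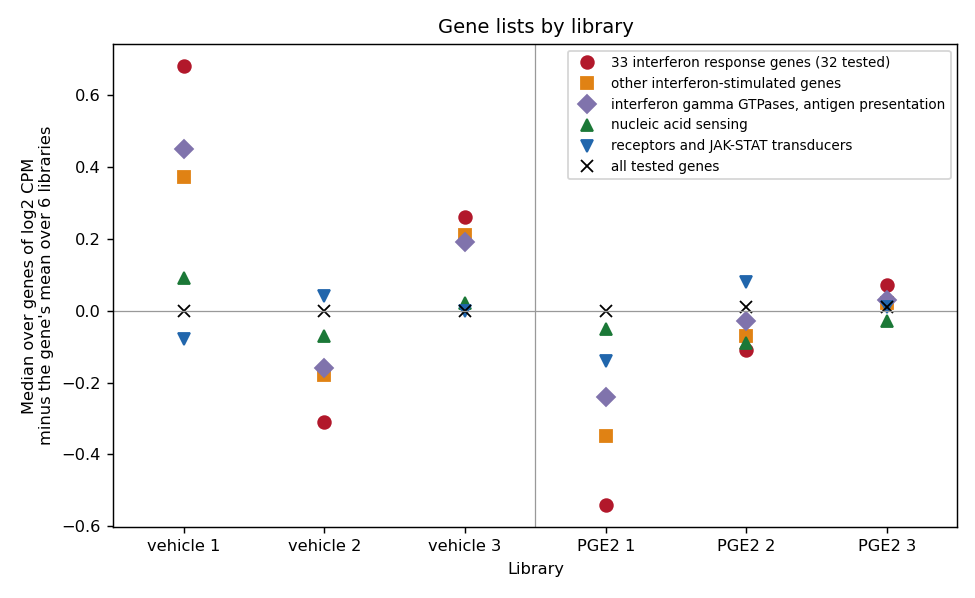
Median over the genes of each list of log2 CPM minus the gene's mean over 6 libraries (y axis) in each library (x axis). The 32 tested interferon response genes run from 0.68 in vehicle library 1 to -0.54 in PGE2 library 1, the other interferon-stimulated genes run from 0.37 to -0.35 in the same libraries, the receptor and transducer list stays between -0.14 and 0.08, and all tested genes stay between 0 and 0.01.

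Markers of other cells were measured beside these values. With vehicle, 9 myogenic markers summed to 225.8, 73.6 and 49.8 CPM in numbers 1, 2 and 3, and with PGE2 they summed to 153.9, 23.1 and 23.4 CPM, and 5 of the 7 tested fell in the paired fit. Both libraries numbered 1 had the highest sum of their group for these markers. Of the 32 tested interferon response genes, 26 were highest in vehicle library 1. The lowest of the 6 libraries was PGE2 library 1 for 19 of them and vehicle library 2 for 12. The summed level of 8 macrophage and leukocyte markers was 9.89 to 10.8 CPM with vehicle and 12.6 to 13.3 CPM with PGE2, with Ptprc and Cd3e at 0 in every library and Csf1r and Cd14 higher in the paired fit. The 5 plasmacytoid and dendritic cell markers summed to at most 0.189 CPM, and 2 of them were at 0 in every library. Pericyte and smooth muscle markers summed to 103.1, 99.8 and 65.7 CPM with vehicle and to 70.7, 55.0 and 48.0 CPM with PGE2, lower in every number, and 3 of 5 (Rgs5, Cspg4 and Notch3) fell in the paired fit. Endothelial markers summed to 21.2, 36.9 and 46.9 CPM and to 19.0, 25.2 and 33.2 CPM, and Schwann cell markers to 4.79, 6.20 and 6.26 CPM and to 3.51, 4.19 and 3.59 CPM, with 1 marker of each (Tek and S100b) lower in the paired fit. The 10 progenitor markers summed to 8165, 12817 and 15815 CPM with vehicle and to 8007, 13931 and 20131 CPM with PGE2. Both libraries numbered 1 had the lowest sum of their group for these markers. Of the 10 progenitor markers 3 rose and 2 fell in the paired fit. Over all tested genes the paired fit called 7.51% lower and 6.91% higher, and the unblocked edgeR fit called none of the markers. In bulk RNA, fewer cells of a type and less RNA per cell cannot be told apart, and the part of these cells in the results was not tested.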

How the data were processed

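Polyadenylated RNA from 6 libraries was read as 100-base paired ends, per the labels' protocols. The authors deposited raw whole-number counts per gene; the submitters' processing notes name mm10 as the build, and which aligner, counter and strand setting were used is not given in the sources used here. Counts were tested with edgeR version 4.0.16 (R 4.3.3): filterByExpr, trimmed mean of M values, robust quasi-likelihood test, Benjamini-Hochberg threshold 0.05. Standard errors are the fold change over the root of the F statistic. CPM use the same scaling, and log2 CPM a prior count of 2. All 37 mitochondrial genes were listed at 0. Libraries of a group differed by chi-square values of at least 19.3 per degree of freedom, far above sampling noise. The fits were tested on simulated data.

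Deviations from the group means correlated at 0.621, 0.169 and 0.422 for same-numbered libraries 1 to 3, each over 0.1, so the numbers were treated as pairing the libraries, on evidence from the data and not the labels. PGE2 library 2 correlated more with vehicle library 3 (0.252), and PGE2 library 3 correlated with vehicle library 2 at 0.145. Both are also over 0.1, so this criterion does not tell the numbering from a swap of numbers 2 and 3. These correlations are over all tested genes, and most of the 32 interferon response genes went against the pairing in number 1. Vehicle library 1 was the highest of its group for 27 of them, and PGE2 library 1 was the lowest of its group for 30. The paired calls of Ifit2 and Gbp2 depend on this numbering. The alternative fits used DESeq2 1.42.0, limma-voom (limma 3.58.1), other scalings, no filter, left-out libraries and a lowess length offset with a span of 0.3. Lengths and positions are from GENCODE M21 (GRCm38). The members, lists and alternatives were chosen with earlier results of these data known. Each library's value is given for genes past the threshold in either edgeR fit, for the 10 highest mean CPM and for the 10 widest ranges over the libraries, and other genes given so, such as Ifih1 and Parp14, were chosen after their values were seen. In the lists, genes past the threshold in either fit were named, and the others named there were chosen after their values were seen. A result for 1 gene of the lists is not reported here.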

Additional observations from a re-analysis of the deposited data

How the results depend on the processing

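Of all tested genes, 52 were called unblocked, 932 by DESeq2, 15 by limma-voom, 285 with no filter, 15 with the length correction, 2189 with the replicate block and 2549 with the block and length correction. The blocked fit called 1372, 1160 and 5097 without number 1, 2 or 3, and unblocked fits without 1 library or 1 number called 0 to 495. Of the 33 interferon response genes, 0 were called unblocked, 6 by DESeq2, 2 with the replicate block, 1 with the block and length correction, 7, 22 and 4 with the block and without number 1, 2 or 3, and 0 to 1 with libraries left out unblocked. For the pathway lists these counts were 0, 9 (DESeq2), 13 (block), 10 (block and length), 12, 39 and 23, and 0 to 2, with 1 under library totals and 2 with no filter. The set's median log2 fold change kept its sign when any 1 library was left out; over all left-out libraries and numbers it ran from -0.742 to 0.003, and with the block and a number left out from -0.769 (without number 2) to 0.013 (without number 1). The set's median difference between same-numbered libraries kept its sign in each number under other prior counts and with library totals alone. The differences of single genes were not rerun. Searched on 1 strand, the response element was in 21.7% of the 23 interferon response genes with a window and in 2.06% of all genes with a window. Among 420 values of 21 genes under alternatives, 370 kept sign and side of the threshold, 29 newly passed and 21 turned sign. Over fits without 1 library or 1 number, the log2 fold change ran from -0.36 to 0.01 for Irf9, -0.82 to 0.04 for Irf7, -0.06 to 0.74 for Zbp1, -1.0 to 0.45 for Oas1a, -0.77 to 0.32 for Mx1, -0.80 to 0.04 for Isg15, -0.39 to 0.11 for Parp9 and -0.30 to 0.68 for Bst2. With the block and without number 1 it was 0.03 for Irf9, 0.09 for Irf7, 0.56 for Oas1a, 0.32 for Mx1, 0.16 for Isg15 and 0.14 for Parp9, and without number 2 it was -0.18 for Zbp1 and -0.37 for Bst2; Bst2 also turned with the length correction (-0.03). The cause was not tested. Counts near 3, as for Oas3 and Mx1, limit those levels.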
